A study of Homo sapiens with 30 samples.

Results

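H3K27ac at 500 nM of JIB-04 was compared with H3K27ac at 150 nM across 63249 consensus peaks on the autosomes and chromosome X, out of 63580 peaks in the H3K27ac table and 84848 in the tables of H3K27ac and H3K4me3 together. The peaks were taken by position alone, and 53753 of the 63249 passed a filter on low counts and were tested. The cells were OCI-Ly1, an established human line of diffuse large B-cell lymphoma. They had been given JIB-04, a compound that inhibits Jumonji histone demethylases, at 150 nM or at 500 nM, or 0.01% DMSO, the solvent, as the control; the time of treatment is not given in the sources used here. Each of the 3 groups had 2 H3K27ac libraries of chromatin immunoprecipitation followed by sequencing (ChIP-seq), so the comparison rests on 4 of the 30 libraries of the series, with the 2 DMSO libraries in the same fit to measure the spread. Nothing in the labels says that replicates came from separate cultures, so the p-values measure the spread between these libraries, which may be technical. All libraries come from 1 cell line, and no spike-in of foreign chromatin is named, so a change shared by all peaks is not measured.

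Jumonji demethylases remove methyl groups from histone lysines and need iron and 2-oxoglutarate to do so. H3K27ac, acetylation of lysine 27 of histone H3, marks active promoters and active enhancers, and at enhancers it is usually found without H3K4me3, a methylation mark that is strongest at active promoters. Several of the genes described below belong to the integrated stress response. In that pathway sensors of unfolded protein or of scarce amino acids slow translation and raise the transcription factor ATF4, which binds with C/EBP-family partners at response elements of genes for amino acid transport, amino acid synthesis and stress signalling.

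The 6 H3K27ac libraries held 4360660 to 5410292 reads in peaks, with a median of 21 to 24 reads per peak, so a single peak carries a large counting error. The 150 nM replicates were the least alike of the 3 pairs of replicates. The counts of 2 libraries were compared by a chi-square divided by its degrees of freedom, near 1 if they differ by counting noise only. This ratio reached 2.36 between the 150 nM replicates but 1.22 at 500 nM and 1.26 in DMSO. Across doses, the 4 pairings of a 150 nM with a 500 nM library gave 1.94 to 2.52, so the 150 nM replicates differed from each other about as much as from the 500 nM libraries. Promoter peaks took 37.1% of the reads of tested peaks in 150 nM replicate 1 and 40% in replicate 2, against 38.7% and 39.4% at 500 nM. On 5 unplaced contigs, 150 nM replicate 2 had 45.9 CPM (counts scaled to a common library size) and DMSO replicate 2 had 71.5, whereas the other 4 libraries had 322 to 446. The part of these differences in the results was not tested beyond the fits given beside each count. The B-cell marker genes MS4A1, CD79A, CD79B, CD22, PAX5, BCL6 and EBF1 had H3K27ac at a gene end. PAX5, the B-lineage transcription factor, had 188 and 234 CPM at 150 nM and 197 and 208 CPM at 500 nM, and CD79A, a subunit of the B-cell receptor, had 199 and 236 CPM at 150 nM and 194 and 195 CPM at 500 nM. No peak was tested at the 3 erythroid or the 4 fibroblast markers, and 1 of 6 myeloid markers had a peak, CEBPE, at 1.70 and 2.64 CPM at 150 nM and 4.71 and 4.11 CPM at 500 nM. The T-cell markers CD3G and CD4 had no tested peak and CD3D stayed at 0.85 to 3.01 CPM, but CD2 had 62.0 to 87.6 CPM and CD8A 39.9 to 53.3 CPM, and EPCAM, the only one of 4 epithelial markers with a peak, had 27.9 to 38.6 CPM. The summed level of the 4 T-cell markers with a peak was 135 to 150 CPM at 150 nM and 110 to 123 CPM at 500 nM. None of these marker peaks was called between the doses, and the part of these markers in the results was not tested.

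The sequences before 4 start sites, and a short stretch after another, show response elements found at some of the stress-response promoters that gained H3K27ac at 500 nM. Their values follow. They are from RefSeq on GRCh38.p14 and are written 5′ to 3′ on the strand of the gene. The capitals mark a match to a C/EBP-ATF response element (TGATGNAA) in CHAC1, SLC1A5 and SLC3A2, to an AP-1 site (TGANTCA) in DDIT3 and to a cyclic AMP response element (TGACGTCA) in PPP1R15A.
CHAC1, chr15:40953221-40953470, plus strand: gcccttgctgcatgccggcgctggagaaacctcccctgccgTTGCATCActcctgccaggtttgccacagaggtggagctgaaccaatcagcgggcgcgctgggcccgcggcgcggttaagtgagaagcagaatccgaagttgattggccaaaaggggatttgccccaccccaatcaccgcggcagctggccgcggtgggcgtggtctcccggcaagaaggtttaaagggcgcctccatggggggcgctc
SLC1A5, an internal start site, chr19:46784815-46785064, minus strand: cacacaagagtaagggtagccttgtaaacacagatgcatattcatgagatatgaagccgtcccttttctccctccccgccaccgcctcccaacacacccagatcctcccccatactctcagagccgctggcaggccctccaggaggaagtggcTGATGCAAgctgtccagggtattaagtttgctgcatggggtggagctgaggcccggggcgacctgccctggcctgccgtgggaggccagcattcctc
SLC3A2, chr11:62881719-62881748, plus strand: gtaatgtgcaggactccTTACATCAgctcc
DDIT3, chr12:57520515-57520764, minus strand: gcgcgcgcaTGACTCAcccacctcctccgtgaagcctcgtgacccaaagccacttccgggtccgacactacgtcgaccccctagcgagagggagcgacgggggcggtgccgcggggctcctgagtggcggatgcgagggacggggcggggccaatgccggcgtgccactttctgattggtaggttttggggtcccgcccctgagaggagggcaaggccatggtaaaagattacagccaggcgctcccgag
PPP1R15A, chr19:48872171-48872420, plus strand: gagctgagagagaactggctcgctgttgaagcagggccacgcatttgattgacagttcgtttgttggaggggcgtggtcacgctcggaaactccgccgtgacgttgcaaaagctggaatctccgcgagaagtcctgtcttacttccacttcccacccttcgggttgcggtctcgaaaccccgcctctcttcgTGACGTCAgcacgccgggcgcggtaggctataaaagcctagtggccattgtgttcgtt

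The match began 209 bases before the start site in CHAC1, 97 before the internal start site in SLC1A5, 241 before the start site in DDIT3 and 58 before it in PPP1R15A. The DDIT3 match lay outside the peak that was called higher, which covered 79 bases of the window searched there. In SLC3A2 it began at base 38, counting the start site as base 1. Windows of 300 bases, 250 before and 50 from each RefSeq start site on, were searched on both strands. TGATGNAA stood in 9 of the 100 windows within 1000 bp of a higher promoter peak (9 of 83 genes: CHAC1, SLC1A5, SLC3A2, HRK, TRIM2, ALPK2, KLHDC7B, LOC107984948 and LOC124903058), in 0 of 18 windows near a lower one, and in 1.84% of the 15106 windows near any tested promoter peak. Its share of all 34961 windows was 3.62%. This motif was absent from the windows of CEBPB, DDIT3, PPP1R15A, SESN2, TRIB3, WARS1, PSAT1, PHGDH, SARS1 and VLDLR, whose promoter peaks were also called higher. The cyclic AMP response element stood in 3% of the windows near higher peaks and in 3.04% of those near any tested peak, and the AP-1 site in 6% and 4.67%. An antioxidant response element (TGACNNNGC, which can overlap an AP-1 site) stood in 19% and 15.0%, an E-box (CACGTG) in 6% and 9.95%, a short heat shock motif (GAANNTTC) in 5% and 4.85%, and a GC box (GGGCGG) in 62% and 68.0%. Neighbouring windows overlap, so they are not independent, and a match describes letters and not binding.

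More H3K27ac peaks were higher than lower at 500 nM. At a Benjamini-Hochberg adjusted p under 0.05 in edgeR's quasi-likelihood test, 512 peaks were higher and 100 lower, so 83.7% of the 612 called peaks rose. Over all 54037 tested peaks, contigs included, 1.09% were higher and 0.185% lower, and the 75 called peaks outside the autosomes and X were all higher. The rises were also the larger changes, with a median log2 fold change of 1.03 against −0.58 for the falls, and 269 rises but 10 falls reached 1 in size. At an unadjusted p under 0.05 there were 5385 peaks. In all 612 called peaks both 500 nM libraries lay beyond both 150 nM libraries in CPM, a separation that 19.2% of the tested peaks showed upwards and 19.3% downwards. The counts depended on single libraries: leaving out 150 nM replicate 1 gave 1453 higher and 575 lower, and leaving out 150 nM replicate 2 gave 544 and 303. Leaving out 500 nM replicate 1 gave 284 and 17, and replicate 2 gave 225 and 11. The DESeq2 Wald test called 147 higher and 7 lower, all 154 among the 581 of the 612 peaks to which it gave an adjusted p, and the libraries with high counts on the 5 contigs alone (DMSO replicate 1, 150 nM replicate 1 and both at 500 nM) gave 705 and 420, a fit chosen after seeing the data. The 612 peaks kept their direction in every one of these fits.

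Called peaks were longer and carried more reads than the rest. The median length was 1536 bp for rises and 2089 bp for falls, against 651 bp for all tested peaks. In the lowest of 5 equal groups by abundance, with a median of 10.0 reads per library, 11 of 10751 peaks were higher and 0 lower, and in the highest, with a median of 218 reads, 168 were higher and 58 lower. Small differences at weak peaks were not detectable at this depth. The median log2 fold change stayed between −0.01 and 0.03 over the 5 groups. Rises were found on all 23 chromosomes, from 0.51% of tested peaks on chromosome 21 to 1.45% on chromosome 20.

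Promoter peaks were those within 1000 bp of a RefSeq start site or, on chromosome 8, of either gene end. Enhancer-like peaks were those farther than 1000 bp from every start site and gene end and with no H3K4me3 peak. Of the 12584 promoter peaks tested, 78 were higher (0.62%) and 14 lower (0.111%), and of the 31106 enhancer-like peaks, 326 were higher (1.05%) and 48 lower (0.154%). The other 10063 peaks, near a gene end or under an H3K4me3 peak away from start sites, gave 108 higher and 38 lower. Promoter peaks were placed by annotation, and 1026 of those tested overlapped no H3K4me3 peak. Of these 1026, 18 were higher (1.75%) and 4 lower (0.39%). Among the 11558 promoter peaks that overlapped an H3K4me3 peak, 60 were higher (0.519%) and 10 lower (0.0865%). The median log2 fold change over all tested peaks was 0.03 at promoters and −0.01 at enhancer-like peaks, after scaling that centres the tested peaks near 0. Of the enhancer-like rises, 239 lay inside genes and 87 outside, and of the falls 20 lay inside and 28 outside. The order of the classes depended on the fit, and the difference was not tested: with a term for the contig split 150 promoter peaks (1.19%) and 303 enhancer-like peaks (0.974%) were higher, and without 150 nM replicate 2 these counts were 169 (1.32%) and 239 (0.659%). Leaving out each of the 6 libraries in turn gave 26 to 176 promoter rises, 1 to 155 promoter falls, 145 to 925 enhancer-like rises and 8 to 218 enhancer-like falls, the lowest without 500 nM replicate 2 and the highest without 150 nM replicate 1. Within 2500 bp in place of 1000 bp, 22 promoter peaks were lower.

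**Figure D1:**
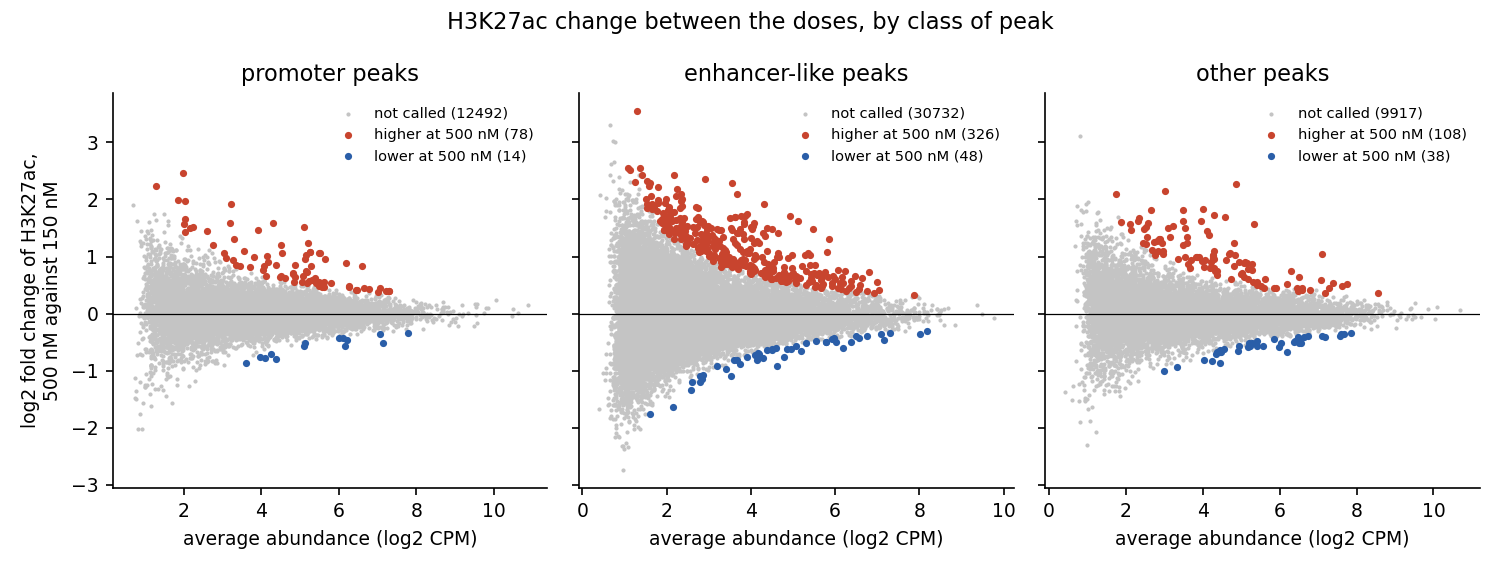
Log2 fold change of H3K27ac at 500 nM against 150 nM (y axis) plotted against average abundance in log2 CPM (x axis) for each tested peak on the autosomes and X, with promoter, enhancer-like and other peaks in separate panels. Coloured points passed an adjusted p of 0.05 in edgeR; higher peaks outnumber lower ones in each panel (78 against 14, 326 against 48 and 108 against 38).

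Promoters of the amino acid response had the most members called. Of the 21 promoter peaks of this list, which holds transporters, synthesis enzymes and regulators that ATF4 is known to act on, 9 were higher and 0 lower, and their median log2 fold change was 0.36 against 0.03 over all promoter peaks. Over all tested promoter peaks 0.62% were higher and 0.111% lower, so a count of 0 lower in a list of this size says nothing about the list. In 16 of the 21 both 500 nM libraries lay above both 150 nM libraries, as they did in 21.9% of all tested promoter peaks. The list of the unfolded protein response, the pathway that answers misfolded protein in the endoplasmic reticulum, had 6 of 43 promoter peaks higher and 0 lower, with a median of 0.09. The 6 were at CHAC1, DDIT3, TRIB3, PPP1R15A and SESN2, the last with 2 peaks. Promoters of chaperones on that list did not pass. CALR, named after its values were seen, had peaks at −0.19 and −0.08 (edgeR adjusted p = 0.733 and 0.881) and does not stand for the others. Of the 43 peaks 30 were above 0 (69.8%), against 56.3% of all tested promoter peaks. In 17 (39.5%) both 500 nM libraries lay above both 150 nM libraries, against 21.9% of all tested promoter peaks. In 6 both lay below, against 1838 of all 12584. The 9 amino acid calls were 4 in DESeq2, 4 in a fit of the 4 libraries alone, 3 or 2 when 500 nM replicate 1 or replicate 2 was left out, and 11 when 150 nM replicate 2 was left out. The 6 calls of the unfolded protein response were 2 in DESeq2 and 10 with a term for the contig split. Some genes are on several lists, and earlier results of these data were known when the lists were made.

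Among the regulators, CEBPB, a C/EBP transcription factor that pairs with ATF4, had 27.8 and 30.7 CPM at its promoter (chromosome 20, 50190603 to 50193597) in the 150 nM libraries, 55.8 and 66.7 at 500 nM, and 39.5 and 44.9 in DMSO. Both 500 nM values lay above all 4 others, and both 150 nM values below. The log2 fold change between the doses was 1.06 ± 0.13 (SE; edgeR adjusted p = 2.00e-07; DESeq2 1.86e-05). DDIT3, which encodes the stress factor CHOP, has 2 promoter peaks, of which 1 was called; it had 25.9 and 30.5 CPM at 150 nM, 49.5 and 51.8 at 500 nM and 34.7 and 38.7 in DMSO (chromosome 12, 57519094 to 57520543), a log2 fold change of 0.84 ± 0.14 (edgeR adjusted p = 4.90e-05). TRIB3, a pseudokinase induced by ATF4 and CHOP, had a small peak whose edge lay 837 bp from the start site (chromosome 20, 379630 to 380458), with 4.04 and 7.16 CPM at 150 nM and 12.6 and 15.6 at 500 nM. DMSO lay between them at 8.05 and 8.62. Its log2 fold change was 1.31 ± 0.25 (edgeR adjusted p = 7.32e-04), but the DESeq2 adjusted p was 0.0998. PPP1R15A, the phosphatase subunit GADD34 that ends the translational block, rose by less, 0.43 ± 0.10 (edgeR adjusted p = 0.0103, DESeq2 0.181), from 88.4 and 106 CPM to 127 and 135. At the promoter of ATF4 itself the groups overlapped, with 74.8 and 100.5 CPM at 150 nM and 103 and 99.0 at 500 nM (log2 fold change 0.20, edgeR adjusted p = 0.563).

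CHAC1, an enzyme that breaks down glutathione, had one of the clearest promoter rises. Its peak (chromosome 15, 40951887 to 40954466) carried 27.6 and 32.2 CPM at 150 nM, 59.9 and 64.9 at 500 nM and 39.8 and 45.9 in DMSO, with no overlap between any 2 groups. The log2 fold change was 1.06 ± 0.13 (edgeR adjusted p = 1.61e-07; DESeq2 1.18e-05). SESN2, a stress-induced brake on growth signalling that is also on the list of p53 targets, had 2 called peaks. The one over its start site held 11.9 and 13.4 CPM at 150 nM and 22.04 and 25.6 at 500 nM, a log2 fold change of 0.91 ± 0.18 (edgeR adjusted p = 0.00195, DESeq2 0.138), and the weaker one 288 bp upstream held 3.40 and 3.39 against 9.04 and 9.58. These were the only called promoter peaks of the 30 on the p53 list.

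Enzymes and transporters of the list rose too. WARS1, the tryptophan tRNA synthetase, whose peak on chromosome 14 (100373641 to 100377238) also covers the start of WDR25, went from 33.4 and 38.3 CPM at 150 nM to 68.9 and 70.8 at 500 nM, with 42.3 and 44.9 in DMSO (log2 fold change 0.96 ± 0.12, edgeR adjusted p = 3.13e-07). PSAT1, an enzyme of serine synthesis, went from 26.99 and 29.2 to 44.6 and 48.9 (0.73 ± 0.14, edgeR adjusted p = 5.47e-04), a call that ended without 500 nM replicate 2 (adjusted p 0.0885). SLC1A5, a glutamine transporter, went from 106 and 118 to 152 and 153 CPM (0.44 ± 0.094, edgeR adjusted p = 0.00346), and this call ended without 500 nM replicate 1 (adjusted p 0.129) and without replicate 2 (0.190). In these 3 peaks no 500 nM value overlapped a 150 nM value. The other 5 called promoters were SLC3A2 (0.46), SARS1 (0.54), PHGDH (0.57), VLDLR (0.55) and EIF4EBP1 (0.54), with edgeR adjusted p of 0.0133 to 0.0323, none of which passed in DESeq2. EIF4EBP1 is on chromosome 8, so its peak was placed by a gene end and is not shown to be a promoter. ASNS, the asparagine synthetase gene and a standard ATF4 target, reached 0.48 ± 0.14 with an edgeR adjusted p of 0.0853.

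**Figure D2:**
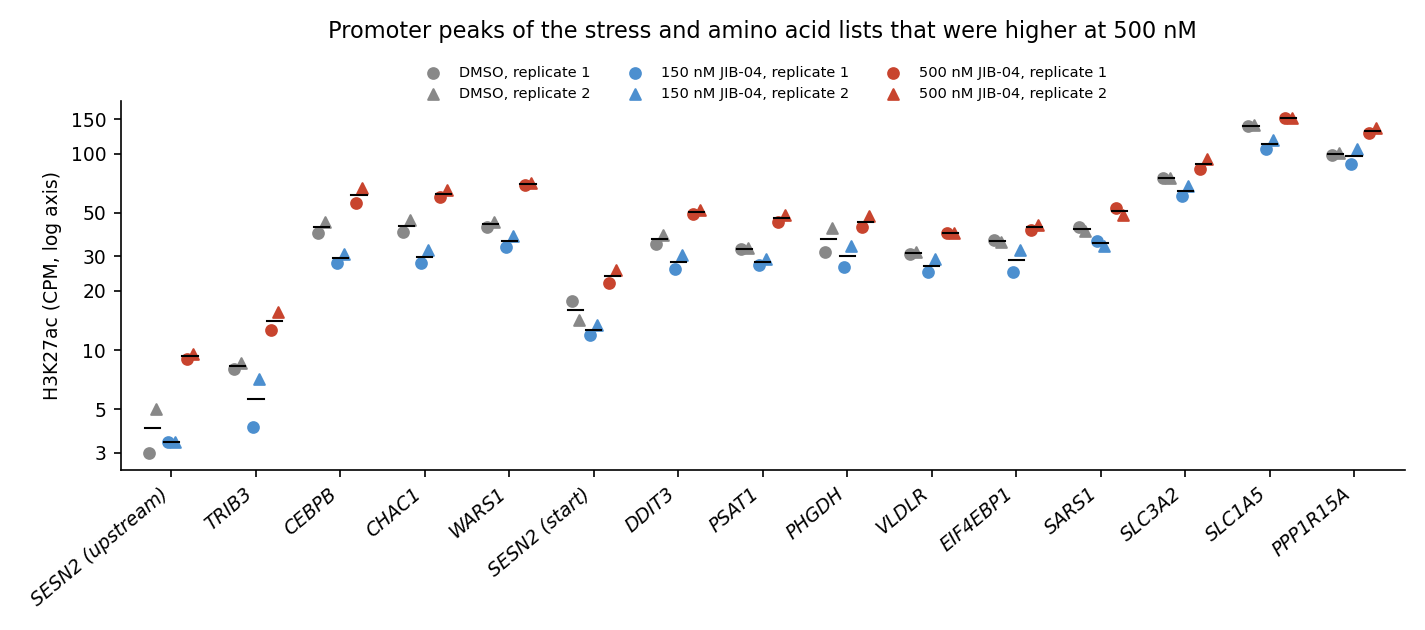
H3K27ac in CPM (y axis, log scale) at the 15 promoter peaks of the unfolded protein response and amino acid lists that were higher at 500 nM, with 1 point per library and a bar at the mean of each group of 2. The 500 nM points lie above both 150 nM points at every peak shown, a separation that all called peaks had.

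DMSO took a middle place at most of these promoters. Over the 78 promoter rises the median log2 fold change was 0.83 at 500 nM against 150 nM, 0.53 at 500 nM against DMSO and −0.24 at 150 nM against DMSO. Of the 78, 30 were also called at 500 nM against DMSO and 0 at 150 nM against DMSO. For the 512 rises of all classes the medians were 1.03, 0.70 and −0.29, with 217 and 1 called, and for the 100 falls −0.58, −0.54 and 0.07, with 48 and 0 called. The comparisons share libraries and the peaks were chosen by 1 of them, so these values are given side by side and show no agreement.

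Of the other 20 gene lists, 5 had 1 or 2 called promoter peaks and 15 had 0 in edgeR. Those 15 lists hold 470 distinct promoter peaks, of which 26 were higher and 15 lower at an unadjusted p under 0.05 and 0 passed in DESeq2. The list of Jumonji genes, the family to which the enzymes inhibited by JIB-04 belong, had 2 of 38 promoter peaks higher, against 0.62% of all promoter peaks. KDM6B, an H3K27 demethylase, went from 124 and 152 CPM at 150 nM to 179 and 185 at 500 nM (0.40 ± 0.093, edgeR adjusted p = 0.0119, DESeq2 0.195). JMJD1C had 44.2 and 30.5 at 150 nM and 54.6 and 54.2 at 500 nM (0.55 ± 0.14, edgeR adjusted p = 0.0203, DESeq2 0.460). Its call also ended at a mean count of at least 50, in a fit of the 4 libraries alone and with a term for the contig split. The KDM6B call ended without 500 nM replicate 1 (adjusted p 0.154), without replicate 2 (0.392) and in a fit of the 4 libraries alone. The JMJD1C call ended without 150 nM replicate 2 (adjusted p 0.280) and without either 500 nM library.

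Single promoters passed in 3 more lists. SREBF1, a regulator of lipid synthesis, rose from 33.8 and 31.9 CPM to 49.9 and 51.0 (0.62 ± 0.13, edgeR adjusted p = 0.00304, DESeq2 0.108), while the sterol synthesis list as a whole had a median of −0.09 over 26 peaks. NR4A1, an immediate early nuclear receptor, had a weak peak of 2.76 and 1.88 CPM that reached 5.46 and 7.82 (1.52 ± 0.37, edgeR adjusted p = 0.0152, DESeq2 0.506). WIPI1, an autophagy protein, shares its peak with PRKAR1A, and that peak rose by 0.45 ± 0.10 (edgeR adjusted p = 0.00545, DESeq2 0.0811). The SREBF1 and WIPI1 calls ended without either 500 nM replicate, and the NR4A1 call without 500 nM replicate 2 or 150 nM replicate 2.

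The remaining lists gave values without a call. The list of hypoxia and glycolysis had the lowest median, −0.13 over 51 promoter peaks, and its smallest p belonged to TPI1, a glycolytic enzyme, at 69.1 and 78.4 CPM at 150 nM and 53.9 and 58.5 at 500 nM (log2 fold change −0.39, edgeR adjusted p = 0.0729). SQSTM1 came closest in the list of NFE2L1, NFE2L2 and oxidative stress (0.38, edgeR adjusted p = 0.0556). SLC11A2, an iron transporter, stood at −1.26 (0.0812) and HSPD1 with HSPE1, mitochondrial chaperones, at 0.38 (0.198). For the B-cell lists the promoter peak with the smallest p in edgeR was BACH2 (0.27, adjusted p = 0.148) among germinal centre factors, IRF4 (0.30, 0.330) in the plasma cell programme, BTK (0.41, 0.396) in receptor signalling, HLA-DMA (−0.49, 0.290) in MHC class II and TRAF1 (−0.25, 0.327) among NF-kB genes. ISG20 (0.36, 0.323), PSMD7 (0.26, 0.429), KAT2B (−0.46, 0.236), EHMT1 (0.35, 0.380), MCM3 (0.27, 0.374) and the histone genes H2AC4, H3C2 and H4C2 under 1 peak (0.19, 0.349) led the interferon, proteasome, acetylation, H3K9 methylation, replication and histone lists. Over the 672 distinct promoter peaks of the 22 lists, 0 were called lower in edgeR or DESeq2 and 17 were lower at an unadjusted p under 0.05; with 0.111% of all promoter peaks called lower, that 0 is near the background.

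**Figure D3:**
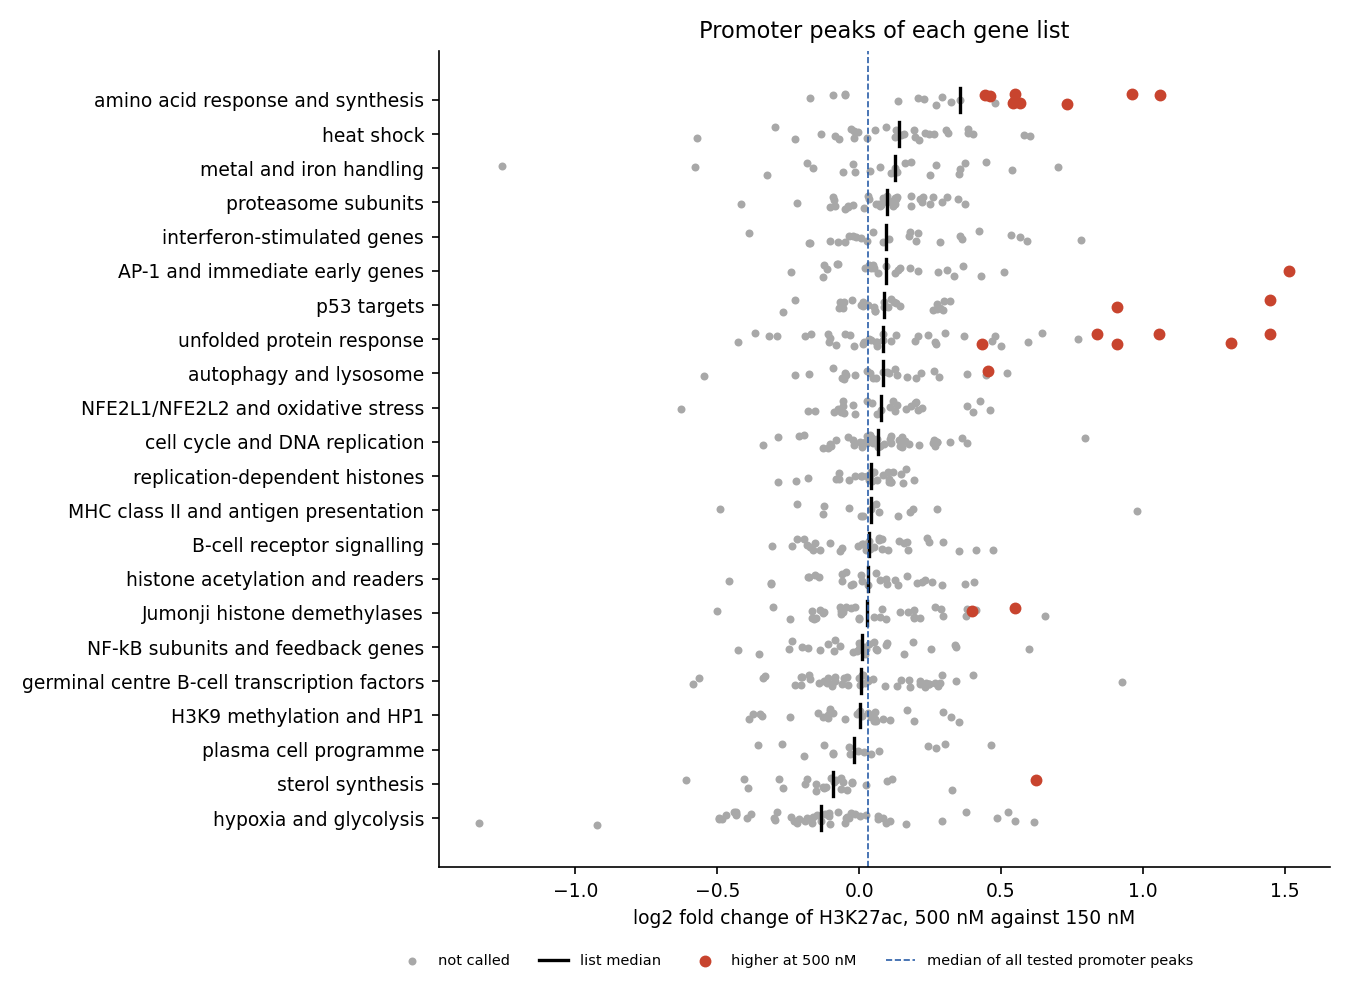
Log2 fold change of H3K27ac at 500 nM against 150 nM (x axis) for each tested promoter peak of the 22 gene lists (rows), ordered by list median. Large red points were called higher, black bars are list medians and the dashed line is the median of all tested promoter peaks, 0.03; the amino acid list lies farthest to the right at 0.36 and the hypoxia and glycolysis list farthest to the left at −0.13.

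The 2 further lists were added after the values had been seen and serve as description. Of 20 promoter peaks of cytosolic tRNA synthetases and the proteins that hold them together, 2 were higher (WARS1 and SARS1), 0 lower, and 18 had a positive log2 fold change, with a median of 0.22. Of 30 promoter peaks of ATF, CREB and C/EBP factors 2 were higher (CEBPB and DDIT3) and the median was 0.04. Over all tested promoter peaks 0.62% were higher, 0.111% lower and 56.3% above 0, with a median of 0.03. At that share, 0 lower in a list of this size says nothing about the list.

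Peaks over 1000 bp from the start sites used here carried the strongest changes near genes of the same lists. Those named here were chosen after their values were seen. The start sites used covered 27305 genes, against 59788 RefSeq genes, so a start site may be missing at some of these peaks. Inside ERN1, which encodes the endoplasmic reticulum stress sensor IRE1, a peak of 4015 bp (chromosome 17, 64073601 to 64077615) held 28.3 and 23.4 CPM at 150 nM, 65.7 and 78.2 at 500 nM and 34.5 and 32.3 in DMSO. Its log2 fold change was 1.48 ± 0.13 (edgeR adjusted p = 2.07e-11; DESeq2 2.86e-11). Beyond the end of TRIB3, 2755 bp away, a peak rose from 26.6 and 30.3 to 56.3 and 59.3 CPM (1.02 ± 0.13, edgeR adjusted p = 3.63e-07). An AIMP2 peak near a gene end rose from 20.0 and 22.1 CPM to 59.9 and 64.7, with 34.7 and 35.3 in DMSO (1.56 ± 0.14, edgeR adjusted p = 8.29e-12); AIMP2 is a scaffold protein of the tRNA synthetase complex. NFE2L1, a transcription factor of proteasome genes, had 82.7 and 98.0 CPM at 150 nM and 183 and 191 at 500 nM over a peak of 6122 bp, against 130 and 136 in DMSO (1.05 ± 0.096, edgeR adjusted p = 2.78e-11). ATF3, a stress-induced factor, rose at a peak inside the gene by 0.94 ± 0.20 (edgeR adjusted p = 0.00308, DESeq2 0.183). The H3K4me3 peak over it had 75.2 and 66.6 CPM at 150 nM and 108 and 110 at 500 nM. Near BATF3, the neighbour of ATF3 on chromosome 1, 2 peaks rose by 1.81 and 1.45. The first lay 180 bp from the gene, under H3K4me3 of 47.4 and 47.1 CPM at 150 nM and 90.4 and 91.0 at 500 nM. Whether these ATF3 and BATF3 peaks are promoters was not settled. Inside SLC7A5, an amino acid transporter, 1 peak rose by 0.35 and another, at 6.37 and 6.22 CPM against 2.07 and 1.96, fell by 1.63 on the log2 scale.

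The enhancer-like peaks with the largest rises, among peaks above the median abundance, lay inside or near genes of varied function. Inside GRIK5, a kainate receptor subunit, a peak on chromosome 19 (42009820 to 42011160) held 2.55 and 2.64 CPM at 150 nM, 11.7 and 15.3 at 500 nM and 5.52 and 4.21 in DMSO (2.36 ± 0.29, edgeR adjusted p = 1.61e-07). Inside PEX14, part of the docking complex for import into peroxisomes, a peak on chromosome 1 (10555343 to 10557032) went from 4.46 and 4.52 to 22.04 and 21.9 CPM (2.28 ± 0.23, edgeR adjusted p = 4.97e-10). A peak inside UNC5B, a netrin receptor, went from 5.10 and 6.22 to 25.6 and 22.9 CPM (2.09 ± 0.22, edgeR adjusted p = 1.00e-09). In all 3 the 500 nM libraries stood clear of both other groups. The next were peaks inside the noncoding gene LINC01512 (1.93), inside LONP2, a peroxisomal protease (1.86), and near SH2D6 (1.74, 8517 bp away), CCM2L (1.71, 2313 bp away) and CREG1, a lysosomal glycoprotein (1.71, 10017 bp away). The CCM2L peak was the most abundant, with 15.3 and 16.2 CPM at 150 nM and 47.7 and 55.9 at 500 nM. All 8 rises stayed called in each alternative fit that held them, with the largest adjusted p, 0.0233, in DESeq2 for LONP2. The nearest gene is a label and not a shown target.

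Falls at enhancer-like peaks above the median abundance were weaker. The largest of these, inside ABLIM1, an actin-binding protein, went from 8.50 and 9.99 CPM at 150 nM to 4.14 and 3.91 at 500 nM (−1.20 ± 0.28, edgeR adjusted p = 0.0130), with DMSO between at 7.36 and 5.62. The next lay 17160 bp from GSTA2, a glutathione transferase (−1.14), 104398 bp from BCAS1 (−1.09) and 141927 bp from MAP3K1, a stress kinase (−1.09). All 4 were peaks of under 20 CPM in every library, and each missed the threshold in DESeq2, with adjusted p of 0.278 to 0.710. A fall at a stronger peak, named after its values were seen, lay 33492 bp from IKZF1, a lymphoid transcription factor, at 112 and 121 CPM against 88.7 and 89.2 (−0.39 ± 0.099, edgeR adjusted p = 0.0258, DESeq2 0.244).

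**Figure D4:**
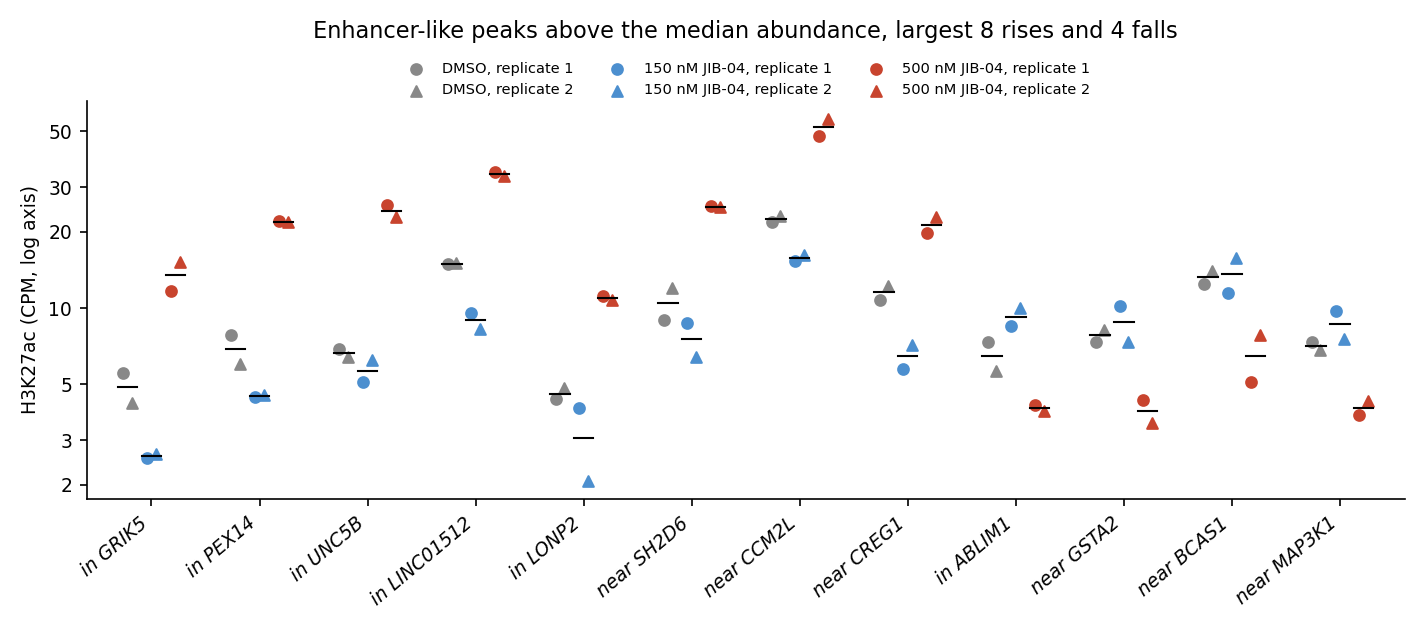
H3K27ac in CPM (y axis, log scale) at the enhancer-like peaks above the median abundance with the 8 largest rises and the 4 largest falls at 500 nM against 150 nM, with 1 point per library and a bar at each group mean. At each of the 8 rises both 500 nM points lie above all 4 other points, and at each of the 4 falls both lie below both 150 nM points.

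At start sites, the largest rises among peaks above the median abundance were partly at noncoding genes. LOC124903058 on chromosome 12 went from 4.67 and 3.96 CPM at 150 nM to 13.6 and 19.2 at 500 nM (1.92 ± 0.26, edgeR adjusted p = 8.76e-07). LOC124903739 inside GSE1 went from 18.9 and 18.8 to 53.7 and 54.4 (1.52) and LOC124901629 inside TNS3 from 24.4 and 24.5 to 54.1 and 61.2 (1.23). RAD21-AS1 went from 6.59 and 2.45 to 13.4 and 13.1 (1.58). It is on chromosome 8, where gene ends stood in for start sites. Its peak, 355 bp from a gene end, is thus not shown to be a promoter. Of the coding genes, RIMS3, a regulator of vesicle release, rose from 12.1 and 9.99 CPM to 31.1 and 35.4 (1.59 ± 0.18, edgeR adjusted p = 1.65e-08). SH3BP2, an adaptor of immune receptor signalling, rose from 7.22 and 9.80 to 22.4 and 24.8 CPM (1.46 ± 0.20, edgeR adjusted p = 1.49e-06). ASIC1, an acid-sensing channel, rose from 3.61 and 3.96 to 7.35 and 10.2 CPM (1.20 ± 0.29, edgeR adjusted p = 0.0190), but not in DESeq2 (0.561) and not without 500 nM replicate 2. The largest falls above the median abundance were smaller: LOC105376314 (−0.87), LOC102724482 (−0.79), KAZN, a junction protein (−0.78), and PSD3, an exchange factor for a small GTPase (−0.77), all with adjusted p of 0.314 to 0.69986 in DESeq2. PSD3 is also on chromosome 8, so its peak was placed by a gene end. The peaks named here at LOC124903739, LOC124901629, RAD21-AS1, LOC105376314 and KAZN overlapped no H3K4me3 peak, so their class rests on annotation alone. At LOC124903058 the H3K4me3 peak had 0.36 and 0.28 CPM at 150 nM and 2.81 and 3.17 at 500 nM.

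Several genes had 3 or more called peaks, in the gene or within 1000 bp of it, that moved the same way. They were chosen for those counts, and over all tested peaks 1.09% were called higher and 0.185% lower. ARL15, a small GTPase, had 4 of 28 peaks higher, SLC43A1, an amino acid transporter, 3 of 5 (0.72 to 1.30), ARSG, a sulfatase, 3 of 12, GPR179 3 of 3 (0.66 to 1.68) and OTUD5, a deubiquitinase, 3 of 8. Of the 3 OTUD5 peaks, 1 lay outside the gene at a start site, 197 bp from PIM2. The median log2 fold change over all tested peaks of the gene was 0.07 in ARL15, 1.17 in SLC43A1, 0.32 in ARSG, 1.47 in GPR179 and 0.49 in OTUD5. The 4 ARL15 calls each ended without 150 nM replicate 2, and the 3 OTUD5 calls each ended in DESeq2 and without 500 nM replicate 1. In GPR179, ARSG and SLC43A1, 2 of the 3 calls ended in DESeq2; the same 2 ended without 500 nM replicate 1 in GPR179 and ARSG, and without 500 nM replicate 2 in GPR179 and SLC43A1. The 2 GPR179 calls that ended in DESeq2 also ended with scaling by total count, in a fit of the 4 libraries alone and with a term for the contig split. GPT2, the mitochondrial alanine aminotransferase, was the only gene with 3 falls, out of 9 tested peaks: their sum was 254 and 283 CPM at 150 nM, 196 and 183 at 500 nM and 249 and 242 in DMSO, and their log2 fold changes lay between −0.93 and −0.39. The weakest of the 3 calls ended in DESeq2 and without either 500 nM replicate.

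H3K4me3 measured in other libraries of the same treatments moved the same way at most called peaks that carried both marks. Of the 512 H3K27ac rises, 125 overlapped a tested H3K4me3 peak, which was called higher at 92 (73.6%) and lower at 3. Of the 100 falls, 43 did so, with H3K4me3 lower at 33 (76.7%) and higher at 3. Over all 20402 tested H3K4me3 peaks 20.5% were higher and 18.6% lower at 500 nM against 150 nM, and at the 19059 tested H3K27ac peaks with a tested H3K4me3 peak the shares were 12.7% and 24.9%. The 150 nM H3K4me3 libraries differed by less than the sampling noise (chi-square per degree of freedom 0.916), as did DMSO replicate 1 and 150 nM replicate 1 (0.946); with the 150 nM pair summed and counted as 1 sample, H3K4me3 was higher at 87 of the rises and lower at 33 of the falls.

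H3K4me3 also rose at the stress promoters. The log2 fold change of H3K4me3 was 0.67 at CHAC1, 0.49 at CEBPB, 0.48 at WARS1, 0.47 at DDIT3, 0.27 at PSAT1 and 0.07 at SLC1A5, each called in edgeR and each smaller in size than that of H3K27ac, while at PPP1R15A it was 0.60 against 0.43. The sizes of the 2 marks were not tested against each other. At RNF187, a promoter named after its values were seen, H3K27ac rose by 0.83 ± 0.10 while H3K4me3 stood at −0.01 ± 0.037. Larger H3K4me3 changes were found at other peaks. Inside TBC1D16, a Rab GTPase-activating protein, H3K27ac went from 11.7 and 11.3 CPM to 54.3 and 57.3 (2.28 ± 0.16, edgeR adjusted p = 2.31e-15) and H3K4me3 from 2.42 and 1.77 CPM to 21.6 and 18.5 (3.26 ± 0.19). At SH3BP2 H3K4me3 rose by 2.36, and inside INHBE, a known stress-induced hormone gene, by 2.87 with H3K27ac at 1.73. Of the falls, the noncoding gene SCIRT on chromosome 6 went from 133 and 162 to 101 and 106 CPM in H3K27ac (−0.52 ± 0.099, edgeR adjusted p = 8.27e-04) and from 147 and 139 to 36.6 and 30.2 CPM in H3K4me3 (−2.08 ± 0.056). Each of these peaks outside the naming rule (TBC1D16, INHBE and SCIRT) was chosen after its values were seen.

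**Figure D5:**
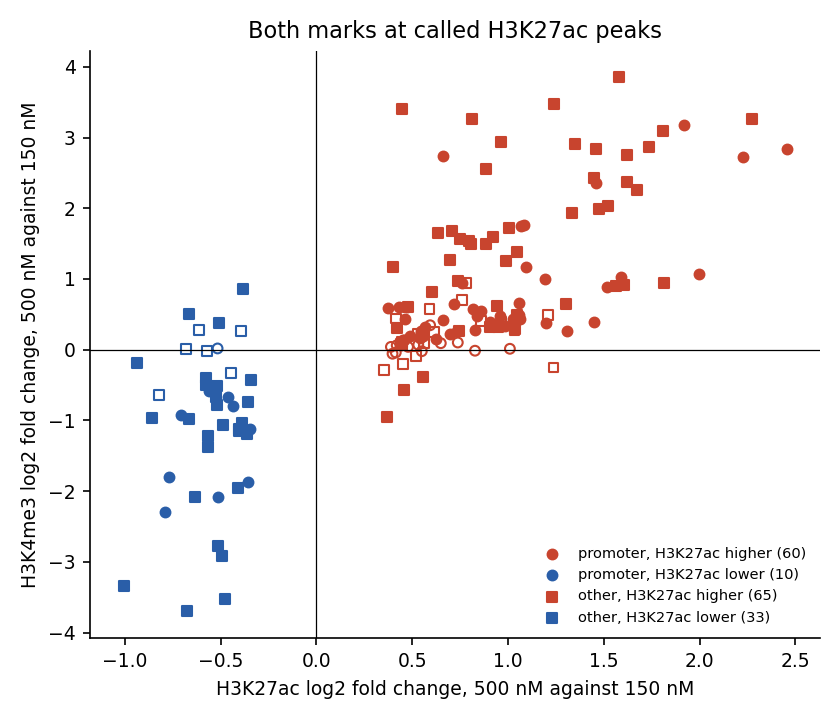
H3K4me3 log2 fold change (y axis) against H3K27ac log2 fold change (x axis), both at 500 nM against 150 nM, at called H3K27ac peaks that overlap a tested H3K4me3 peak; circles are promoter peaks, squares other peaks, and filled symbols passed an adjusted p of 0.05 for H3K4me3. Most red symbols, the H3K27ac rises, lie above 0 and most blue symbols, the falls, below it.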

How the data were processed

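The authors deposited 1 featureCounts table of read counts per consensus peak for each mark, not normalized; the counts were made with featureCounts 2.0.1 without strand, with reads counted in every peak they overlap by at least 0.2 of their length, per the file headers. The submitters' processing notes name GRCh38, Trim Galore 0.6.7, BWA 0.7.17-r1188, Picard 2.27.4, MACS2 2.2.7.1, deepTools 3.5.1 and edgeR 3.42.4. The labels give single-end reads of 50 bp while the header carries the paired option, so 1 count is a read or a fragment. Peaks called on the same libraries that are then compared can favour regions strong in 1 of them.

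Counts of the 6 libraries of a mark were fitted together with edgeR 4.0.16 (R 4.3.3, limma 3.58.1): peaks with low counts were dropped by filterByExpr, libraries were scaled by TMM, and the quasi-likelihood test was adjusted over all tested peaks by Benjamini-Hochberg. The standard error is the log2 fold change divided by the root of F. CPM was computed from the scaled total of reads in the peaks that were tested. Coordinates are the deposited starts plus 1. Start sites and genes were taken from RefSeq tables of GRCh38.p14, with gene ends used on chromosome 8. Named peaks had an adjusted p under 0.05, abundance above the median and groups that did not overlap. Of these, the 8 promoter and 8 enhancer-like peaks with the largest rise and the 4 of each with the largest fall were named. Genes with 3 or more called peaks were named up to 6 by number, and SLC43A1, tied with the last, was added. Up to 4 called promoter peaks per list were named, or the one with the smallest p; further list genes were named after their values were seen. Some results that these rules would name are not reported here. The members and lists were chosen with earlier results of these data known. On simulated counts with 200 peaks changed by a log2 change of 1, the fit recovered 43% among 54037 H3K27ac peaks (88 calls, 2 false) and 81.5% among 20402 H3K4me3 peaks (170 calls, 7 false). The alternatives were other scalings, filters, tests (DESeq2 1.42.0) and subsets of libraries. The series' libraries of input, H3K9me2 and H3K9me3 were not analysed here.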

Additional observations from a re-analysis of the deposited data

How the results depend on the processing

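With the main counts at 512 higher and 100 lower H3K27ac peaks, a mean count of at least 50 gave 278 and 62, the 4 libraries of the comparison alone 336 and 30, DESeq2 147 and 7, an adjusted p under 0.01 305 and 22, and a minimum size of 1 for the log2 fold change 269 and 10. A term for the contig split gave 607 and 234, and the libraries on its high side alone (chosen after seeing the data) 705 and 420. Leaving out 1 library gave 225 to 1453 higher and 11 to 575 lower peaks. The share of higher peaks among calls was 83.7% in the main fit, 62.7% on the high side alone and 95.5% in DESeq2. Median-of-ratios, total-count and loess scaling, and no filter, kept the count of rises within 1.5 times. For the amino acid list (9 called), the 4 libraries alone, DESeq2 and an adjusted p under 0.01 each gave 4, the minimum size of 1 gave 1, and leaving out 1 library gave 2 to 11. For the unfolded protein response list (6 called), DESeq2 gave 2, the contig term 10 and the minimum size of 1 gave 3. Promoter falls were 22 within 2500 bp against 14 within 1000 bp. Of the 62 named called peaks, 34 of 61 with a value lost the call in DESeq2, 26 without 500 nM replicate 1 and 29 without 500 nM replicate 2, and none changed direction in any alternative. The causes were not tested. The H3K4me3 counts at called peaks (92 and 33) stayed within 1.5 times in all alternatives run. These alternatives refitted H3K4me3 only and kept the H3K27ac calls of the main fit, so they do not cover the change in those calls.

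Samples with the same replicate number were not shown to be paired: the correlation of their deviations from the group means was 0.13, 0.0036 and 0.059 for H3K27ac and 0.034, 0.061 and 0.0084 for H3K4me3. With the number as a replicate block there were 826 higher and 272 lower H3K27ac peaks, and with the 4 libraries alone and the block, added after seeing the data, 625 and 185.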
